A study of Mus musculus with 20 samples.

Results

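Plasma cells were described in 20 single-cell libraries from mouse spleen and lymph node. They were chosen by a fixed rule on UMIs, the molecular identifiers by which each captured RNA molecule counts once. A barcode was kept if it had at least 1500 UMIs, 200 or more genes and no more than 10% of UMIs from mitochondrial genes. A kept barcode was called a plasma cell if it had at least 20 UMIs of Jchain, at least 2 of Derl3 and Sdc1 together, and none of Cd3d, Cd3e or Cd3g. The rule found 1781 plasma cells among 97181 kept barcodes (1.83%). It uses measured values, so the levels of Jchain, Derl3 and Sdc1 in these cells are not results.

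Unselected live cells had been taken from 13 mice at early removal criteria, giving 13 spleens (5 of Eµ-PRMT5 genotype, 4 Eµ-TCL1 and 4 Eµ-PRMT5/TCL1) and 7 lymph nodes (3 Eµ-TCL1 and 4 Eµ-PRMT5/TCL1). Eµ-PRMT5 mice carry a human PRMT5 cDNA under a heavy chain V promoter and the IgH-µ enhancer, which drives expression in the B lineage. Eµ-TCL1 mice carry the human TCL1 oncogene under the same kind of enhancer, and both transgenes are present in Eµ-PRMT5/TCL1 mice. The labels give the strain as C57BL/6N and the study's methods place the cross with homozygous Eµ-TCL1 mice on C57BL/6J. No non-transgenic mouse was among the libraries, no ages were given, and the human transgenes are not among the counted mouse genes. Eµ-PRMT5 mice descended from few founders, and the mouse of Eµ-PRMT5 spleen 3 has the identifier of a founder. The lymph nodes were sub-mandibular, and 7 mice gave both a spleen and a lymph node.

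Plasma cells are the antibody-secreting end stage of the B lineage. The transcription factors Blimp-1 (Prdm1) and Xbp1 shut off much of the B cell programme and enlarge the endoplasmic reticulum (ER), and the J chain (Jchain) joins secreted IgM and IgA into polymers. Every B cell clone carries its own rearranged heavy chain V gene (Ighv) and light chain V gene (Igkv or Iglv), and a plasma cell keeps those of the B cell it came from. The Eµ-TCL1 model is known for IgM-positive leukaemias of the B-1 type, in which the same V genes recur between mice.

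Total UMIs per library ranged from 9348094 to 72440894, and kept barcodes from 784 to 8631. Plasma cells were spread unevenly. Eµ-PRMT5/TCL1 spleen 4 held 567 of them (31.8%) and the 4 libraries with the most held 1198 (67.3%), whereas 6 libraries had fewer than 10 and 1 of those had none. Of 91354 distinct kept barcode sequences 5623 occurred in more than 1 library. No barcode was called a plasma cell in 2 libraries, although 197 plasma cell barcodes were also kept in another library. Shares are given for all 20 libraries, V genes, isotype and cycling for 14 libraries with at least 10 called plasma cells, and sums across genes for 12 libraries with at least 20.

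The Cd3 condition of the rule changed the number of members in particular libraries. It left out 1002 barcodes that met every other condition, and 742 of them had UMIs of Cd3g and no other Cd3 gene. These barcodes came mainly from Eµ-TCL1 spleen 1 (382), Eµ-TCL1 lymph node 3 (164), Eµ-PRMT5/TCL1 lymph node 4 (164), Eµ-PRMT5/TCL1 spleen 4 (102) and Eµ-TCL1 lymph node 1 (92). Of the 1002, 673 had no UMI of the T cell receptor genes Trac, Trbc1 and Trbc2 or of Cd3d. With these 4 genes in place of the Cd3 genes, an alternative chosen after seeing the data, the number of plasma cells was 2287. The shares of these libraries are given both ways below. Among 32119 T cells, 1 had the Jchain and Derl3 or Sdc1 UMIs of the rule, and the 99th percentile of Jchain in T cells was at most 2 UMIs in each of the 14 libraries. T cells were defined to have no UMI of B cell surface genes, so these values do not cover barcodes with reads of both. Of the 382 left out of Eµ-TCL1 spleen 1, 266 had at least 2 Cd3 UMIs.

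Barcodes near the Jchain limit were few, and those near the Derl3 and Sdc1 limit were many. With Derl3 and Sdc1 at 2 or more together, 70 barcodes had 20 to 24 Jchain UMIs, just inside, with a median of 20 Xbp1 UMIs, and 71 had 15 to 19, just outside, with a median of 21. At 20 or more Jchain UMIs, 306 of the 1781 plasma cells had exactly 2 UMIs of Derl3 and Sdc1, with a median of 18.5 Xbp1 UMIs and 36.4% immunoglobulin UMIs. Just outside, 372 barcodes had exactly 1, with 15 Xbp1 UMIs and 37.2%, and 330 had none, with 13 and 31.9%.

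Most markers that the rule did not use were detected more often in plasma cells than in B cells, and Irf4 did not separate them. B cells were defined by B cell surface genes and no Derl3, Sdc1 or Cd3 UMI. They had no limit on Jchain, so Jchain-high barcodes without Derl3 or Sdc1 could be among them. Over the 14 libraries, Xbp1 was detected in 93.5% to 100% of plasma cells and in 27.7% to 63.0% of B cells. Fkbp11, an ER prolyl isomerase, was detected in 20.8% to 89.8% of plasma cells and 0.680% to 8.51% of B cells. Tnfrsf17, the receptor BCMA that carries survival signals in plasma cells, was detected in 16.2% to 73.7% of plasma cells and in at most 1.66% of B cells. The corresponding values for Prdm1 were 18.5% to 68.0% and 1.31% to 33.7%, and for Irf4 they were 22.3% to 66.7% and 16.8% to 46.6%. Mzb1 was detected in 100% of plasma cells and 58.0% to 97.6% of B cells, with medians of 28.5 to 155 and 1 to 13 UMIs per cell. In T cells Fkbp11 was detected in at most 0.406% and Tnfrsf17 in at most 0.0221%, while Xbp1 was detected in 25.1% to 53.2%. Shares of cells with a UMI depend on depth, and median UMIs per cell ranged from 7280 to 28555 in plasma cells and from 3986 to 7906 in B cells.

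B cell genes were still detected. Ms4a1, which codes for CD20, was found in 33.3% to 80.8% of plasma cells and 67.0% to 96.0% of B cells, and Pax5, the factor that maintains B cell identity, in 0% to 18% and 23.7% to 40.3%. At least 98.0% of plasma cells in every library had a UMI of Cd74, the invariant chain of MHC class II, with a median of 27 to 132 UMIs per cell. Ms4a1 was not detected in T cells by the definition of that class. The label of plasma cells held by Xbp1, Fkbp11 and Tnfrsf17, but not by Irf4, which did not separate these cells from B cells. The cells also carried the surface and antigen presentation genes that plasmablasts are known to retain. Doublet scoring marked 81 of the 1781 plasma cells, and the part of doublets in the B cell reads was not tested.

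The plasma cell share of kept barcodes varied widely between mice of a group. In Eµ-PRMT5 spleens 1 to 5 it was 0.991%, 1.87%, 1.04%, 0.0434% and 0.418% (mean 0.873% ± 0.696, SD, n = 5). In Eµ-TCL1 spleens 1 to 4 it was 1.64%, 0.0290%, 0.480% and 0.489% (0.659% ± 0.687, n = 4). In Eµ-PRMT5/TCL1 spleens 1 to 4 it was 3.00%, 0%, 0.149% and 10.5% (3.41% ± 4.93, n = 4). The second of these had 0 plasma cells among 3711 barcodes, which allows a share of up to 0.0808%. A single spleen, the fourth, was higher than every other library in the study and set the mean of its group.

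In Eµ-TCL1 lymph nodes 1 to 3 the share was 0.414%, 5.98% and 5.24% (3.88% ± 3.02, n = 3). Lymph nodes 1 to 4 of Eµ-PRMT5/TCL1 mice had 0.765%, 2.88%, 0.106% and 1.25% (1.25% ± 1.18, n = 4). As shares of kept barcodes all groups overlapped. The difference was 0.214 percentage points between spleens of Eµ-PRMT5 and of Eµ-TCL1 mice (adjusted p = 0.853), 2.76 between spleens of Eµ-PRMT5/TCL1 and of Eµ-TCL1 mice and 2.54 between spleens of Eµ-PRMT5/TCL1 and of Eµ-PRMT5 mice (adjusted p = 0.667 for both). It was -2.63 points between lymph nodes of Eµ-PRMT5/TCL1 and of Eµ-TCL1 mice (adjusted p = 0.667). These are exact two-sided permutation tests over libraries, adjusted by the Benjamini-Hochberg method over 5 comparisons of the measure. The lymph node comparison cannot go below an exact p of 0.0571. Without Eµ-PRMT5/TCL1 spleen 4 the differences of 2.76 and 2.54 points were 0.390 and 0.176. The lymph node difference was -4.36 points without Eµ-TCL1 node 1 and -1.58 without node 2, and -1.49 with at least 4 UMIs of Derl3 and Sdc1. Shares are of all captured cells, so fewer plasma cells and more of other cells cannot be told apart. As a share of plasma and B cells together, the lymph nodes of Eµ-TCL1 mice had 7.42%, 18.1% and 10.7%, and those of Eµ-PRMT5/TCL1 mice 1.37%, 4.67%, 1.49% and 6.72%. These groups did not overlap and differed by -8.51 points (exact permutation p = 0.0571, the smallest possible, adjusted p = 0.286).

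With the T cell receptor genes and Cd3d in place of the Cd3 genes, the share in Eµ-TCL1 spleen 1 was 5.32% in place of 1.64%, in Eµ-TCL1 lymph node 3 it was 7.32% in place of 5.24%, in Eµ-TCL1 lymph node 1 it was 1.58% in place of 0.414%, in Eµ-PRMT5/TCL1 spleen 4 it was 11.2% in place of 10.5%, and in Eµ-PRMT5/TCL1 lymph node 4 it was 2.70% in place of 1.25%. The difference between spleens of Eµ-PRMT5 and of Eµ-TCL1 mice then changed sign, to -0.887 points.

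**Figure D1:**
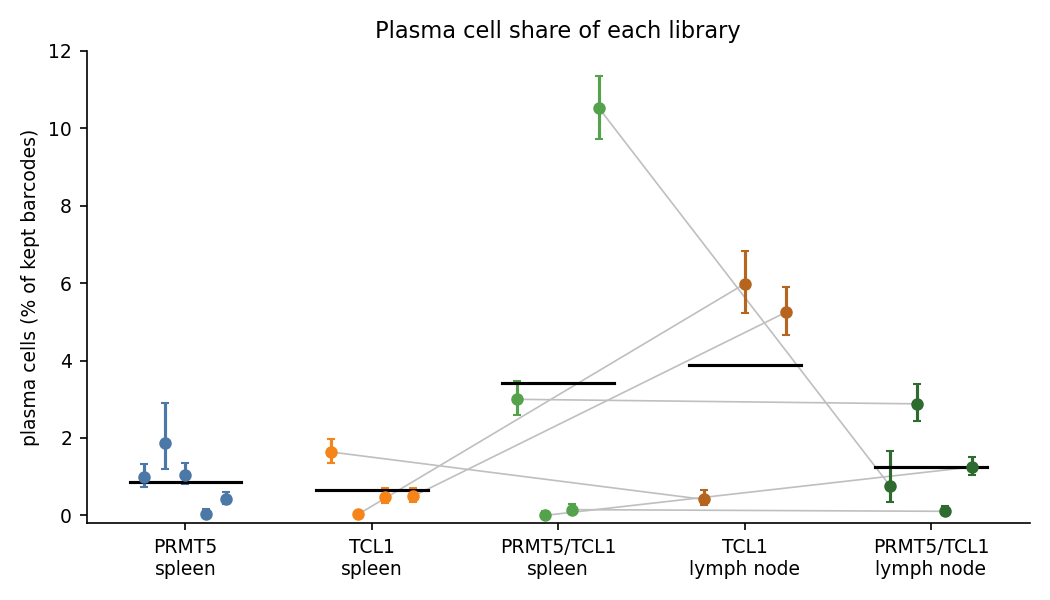
Plasma cells as a percentage of kept barcodes in each of the 20 libraries, by group. Points are libraries with 95% Wilson intervals, black lines are group means and grey lines join spleen and lymph node of a mouse; the highest point is Eµ-PRMT5/TCL1 spleen 4 at 10.5% and the groups overlap.

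Spleen and lymph node of a mouse often differed in plasma cell share, with no common direction. As a share of the kept barcodes the lymph node was higher in 3 of 7 mice, and as a share of plasma plus B cells in 5 of 7. In 2 Eµ-TCL1 mice the node held 5.98% and 5.24% and the spleen 0.0290% and 0.489%, and in an Eµ-PRMT5/TCL1 mouse the node held 1.25% and the spleen 0%. The reverse was seen in the Eµ-PRMT5/TCL1 mouse with 10.5% in the spleen and 0.765% in the node, and in the third Eµ-TCL1 mouse, with 1.64% and 0.414%. The last 2 Eµ-PRMT5/TCL1 mice had close values, 3.00% and 2.88% in one and 0.149% and 0.106% in the other. The mean difference, node minus spleen, was 0.118 points (exact sign-flip test over 7 mice, p = 0.984). As a share of plasma plus B cells it was 2.13 points, and on the log2 scale of the share plus 0.01 it was 1.63, both with an adjusted p of 0.952 in the exact sign-flip test. As a share of the kept barcodes the mean difference was 3.16 points in Eµ-TCL1 mice and -2.16 points in Eµ-PRMT5/TCL1 mice. The difference between genotypes in this contrast, -5.32 points, was not significant (exact permutation of genotype over 7 mice, p = 0.229). It was -2.80 points without the mouse of Eµ-PRMT5/TCL1 spleen 4, -7.51 without that of Eµ-TCL1 spleen 1 and -2.79 after thinning each barcode to 1500 UMIs, an alternative chosen after seeing the data.

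A few germline V genes carried the clonal results. The 3′ ends of 6 of them are shown because they pair up in single cells: Ighv12-3 with Igkv4-91 and, in 1 mouse, also Igkv17-127, and Igkv12-89 with Ighv1-55 or Ighv8-2. Each sequence is the last 100 bases of the reference transcript in the GENCODE vM21 annotation of GRCm38, 5′ to 3′, and not a rearranged sequence from these cells. Capitals mark the codon after the last pair of tyrosine codons, which in most V genes is the conserved cysteine codon that opens the third complementarity-determining region. It was TGT or TGC in 5 of the 6 and GGT in the reference Ighv8-2.
Ighv12-3: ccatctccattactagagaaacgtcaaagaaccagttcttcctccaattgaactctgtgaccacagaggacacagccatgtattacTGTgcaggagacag
Igkv4-91: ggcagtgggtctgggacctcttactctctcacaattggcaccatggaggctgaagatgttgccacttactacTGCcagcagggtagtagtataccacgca
Igkv17-127: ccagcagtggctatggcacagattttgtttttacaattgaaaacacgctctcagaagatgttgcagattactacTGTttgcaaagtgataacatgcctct
Ighv1-55: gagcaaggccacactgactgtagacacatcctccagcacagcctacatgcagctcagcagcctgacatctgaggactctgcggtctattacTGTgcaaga
Igkv12-89: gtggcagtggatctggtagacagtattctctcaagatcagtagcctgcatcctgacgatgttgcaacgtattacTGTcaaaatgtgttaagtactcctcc
Ighv8-2: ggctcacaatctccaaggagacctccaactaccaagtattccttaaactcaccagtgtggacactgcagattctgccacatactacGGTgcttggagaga

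Ighv12-3 (ENSMUSG00000076676) lies at chr12:114366521-114366954, Ighv1-55 (ENSMUSG00000095589) at chr12:115208095-115208591 and Ighv8-2 (ENSMUSG00000102301) at chr12:114462291-114462730, all on the minus strand of the heavy chain locus. Igkv4-91 (ENSMUSG00000076532) lies at chr6:68768555-68769103 and Igkv12-89 (ENSMUSG00000076534) at chr6:68834846-68835307 on the minus strand of the kappa locus, and Igkv17-127 (ENSMUSG00000076508) at chr6:67861153-67861659 on the plus strand. All are annotated as immunoglobulin V gene segments. The longest run of identical bases is 14 between the Igkv4-91 and Igkv17-127 transcripts and 8 between Ighv8-2 and Ighv1-55. Many other V genes have close relatives, and reads of such genes can be split between them.

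In most libraries the leading Ighv gene of the plasma cells was that of the B cells of the same library. Both tissues of a mouse are counted apart. A V gene was called in a cell with at least 3 V UMIs of the chain and at least 60% of them in 1 gene, which gave an Ighv gene in 1629 plasma cells and a light chain V gene in 1773. The leading Ighv gene of plasma cells was the leading Ighv gene of B cells in 10 of 14 libraries. The share of plasma cells with that gene was 64.0% in Eµ-PRMT5 spleen 5 and 100% in Eµ-TCL1 spleens 1 and 4. Spleens 1 and 4 of Eµ-PRMT5/TCL1 mice had 99% and 99.8%. Lymph nodes 1 to 3 of Eµ-TCL1 mice had 94.1%, 100% and 98.8%, and nodes 2 and 4 of Eµ-PRMT5/TCL1 mice 95% and 97.2%. In the other 4 libraries it was 2.22%, 0% and 3.70% in Eµ-PRMT5 spleens 1 to 3 and 4.17% in Eµ-TCL1 spleen 3. The light chain differed from this in Eµ-TCL1 spleen 4 and lymph node 3. There 0 of 28 and 0 of 251 plasma cells were called for the leading light chain gene of the B cells.

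The mean share of plasma cells with the leading B cell Ighv gene was 17.5% ± 31 (SD, n = 4) in the spleens of Eµ-PRMT5 mice, 68.1% ± 55.3 (n = 3) in those of Eµ-TCL1 mice and 99.4% ± 0.562 (n = 2) in those of Eµ-PRMT5/TCL1 mice. In lymph nodes it was 97.6% ± 3.11 (n = 3) for Eµ-TCL1 and 96.1% ± 1.57 (n = 2) for Eµ-PRMT5/TCL1. Eµ-PRMT5/TCL1 and Eµ-PRMT5 spleens did not overlap and differed by 81.9 points, with an exact permutation p of 0.133, the smallest that 2 against 4 libraries allow (adjusted p = 0.333). Eµ-PRMT5 and Eµ-TCL1 spleens differed by -50.6 points (exact permutation p = 0.114, adjusted p = 0.333), and by -82.5 points when Eµ-TCL1 spleen 3 was left out and -34.6 when spleen 1 or spleen 4 of that genotype was. None of the 5 comparisons passed. Spleens of Eµ-PRMT5/TCL1 and of Eµ-TCL1 mice differed by 31.4 points, and by -0.574 without Eµ-TCL1 spleen 3. With the leading heavy and light chain pair of the B cells in place of the Ighv gene, Eµ-PRMT5 and Eµ-TCL1 spleens differed by -17.8 points and spleens of Eµ-PRMT5/TCL1 and of Eµ-TCL1 mice by 64.7, since none of the 28 plasma cells of Eµ-TCL1 spleen 4 was called for the leading pair. In that spleen 96.4% of B cells and 100% of plasma cells had UMIs of both Igkv17-127, the light chain gene of that pair, and Igkv4-91. The call of 1 gene divides such cells, so these pair values do not show that the B cell clone was missing.

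The 4 discordant libraries differed in how far the leading V gene pair of the plasma cells was present among B cells. In Eµ-PRMT5 spleen 2, Ighv4-1 with Igkv19-93 made up 18 of 19 plasma cells with both chains called (94.7%) and 22 of 209 B cells (10.5%), while B cells were led by Ighv7-3 with Igkv6-32 (140 cells), which no plasma cell had. In Eµ-PRMT5 spleen 3, Ighv1-47 with Igkv1-110 made up 29 of 54 plasma cells (53.7%) and 223 of 1250 B cells (17.8%), and Ighv2-6 with Igkv4-61 a further 11 plasma cells (20.4%) and 40 B cells (3.20%). In Eµ-TCL1 spleen 3, Ighv1-26 with Igkv10-96 made up 20 of 24 plasma cells (83.3%) and 333 of 928 B cells (35.9%), while the leading B cell pair, Ighv10-3 with Igkv3-5, was in 451 B cells and 1 plasma cell. In these 3 spleens the plasma cell pair was the second most frequent pair of the B cells.

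Eµ-PRMT5 spleen 1 stood apart from these. Its B cells used many genes, 90 different Ighv genes in 1022 called cells, of which the leading, Ighv6-6, made up 13.2%. Its plasma cells used 27 different Ighv genes in 45 called cells, yet 12 of 43 with both chains called (27.9%) shared Ighv1-59 with Igkv17-121. That pair was found in 1 of 881 B cells (0.114%).

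**Figure D2:**
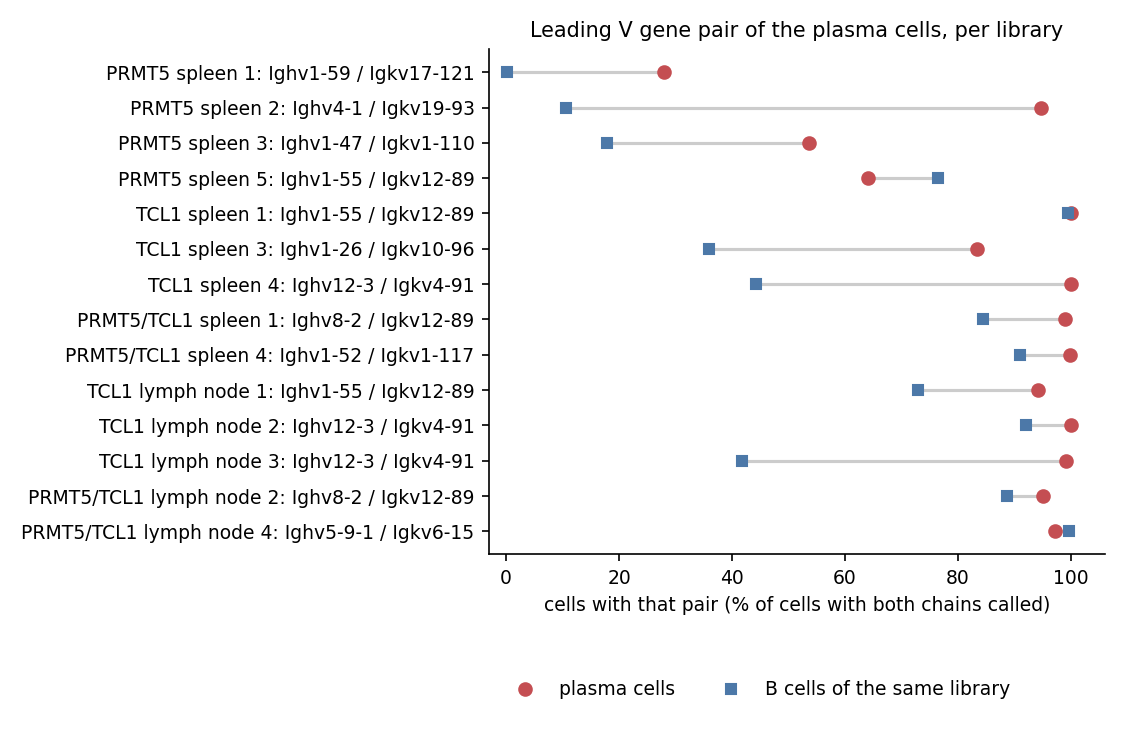
Share of plasma cells (circles) and B cells (squares) with the leading heavy and light chain V gene pair of the plasma cells, in the 14 libraries with at least 10 plasma cells called for both chains. The pair was chosen in the plasma cells, which favours a higher share there; the gap is widest in Eµ-PRMT5 spleen 2 (94.7% against 10.5%), and the B cell share is the higher in Eµ-PRMT5 spleen 5 (76.4% against 64.0%) and Eµ-PRMT5/TCL1 lymph node 4 (99.7% against 97.2%).

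A V gene pair that was common among B cells could also be missing from plasma cells. In Eµ-PRMT5/TCL1 spleen 4, Ighv11-2 with Igkv14-126 was the second pair of the B cells with 192 of 2296 cells (8.36%). It was in none of 567 plasma cells, which allows a share of up to 0.529%, and 566 of these cells had Ighv1-52 with Igkv1-117, the pair of 91.0% of B cells.

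The same pairs returned in separate mice and in both tissues of a mouse, counted where a pair was among the 3 leading pairs of a library and held by at least 2 of its plasma cells. Ighv12-3 with Igkv4-91 was found in 485 plasma cells of 3 mice: all 200 of Eµ-TCL1 lymph node 2 and the 2 of the spleen of the same mouse, 249 of 251 in Eµ-TCL1 lymph node 3 and all 28 in the spleen of that mouse, and 6 of 25 in Eµ-PRMT5 spleen 5, where the same pair was in 6.35% of B cells. Ighv1-55 with Igkv12-89 was called in 138 plasma cells of 3 mice. Among them were all 104 of Eµ-TCL1 spleen 1 and 16 of 17 in the lymph node of the same mouse. There were 16 of 25 in Eµ-PRMT5 spleen 5 and 2 in Eµ-PRMT5/TCL1 lymph node 2. A further single cell in the spleen of that last mouse is not in the count. In that last mouse Igkv12-89 was called in 134 of 135 node and 179 of 179 spleen plasma cells. UMIs of both Ighv8-2 and Ighv1-55 were in 97.8% and 100% of these plasma cells. A call of 1 gene divides such cells or leaves them uncalled. The pair counts of this mouse thus do not show that few of its plasma cells carried Ighv1-55. In all 6 mice with plasma cells called for both chains in both tissues, the leading pair of the node also led in the spleen, alone or in a tie. In 1 of these mice this rests on 2 node cells and 1 spleen cell, in a tie of 3 pairs with 1 cell each. By Ighv gene alone the tissues of that mouse differed, with Ighv12-3 leading in the spleen (4 of 7 cells) and Ighv1-9 in the node (2 of 6). V gene identity does not show the junction, so that cells with a shared pair need not be of 1 clone.

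How mixed plasma cells and B cells of a library were in V genes was compared by the chance that 2 cells share the gene, and no comparison passed. For Ighv it was on average 71.5% in plasma cells and 56.9% in B cells of 9 spleens, higher in plasma cells in 8 of 9 (difference 14.6 points, exact two-sided sign-flip p = 0.0352, adjusted p = 0.105 over 6 comparisons). For Igkv the corresponding means were 71.8% and 54.4%, again with 8 of 9 higher (17.4 points, exact p = 0.0352, adjusted p = 0.105). Eµ-PRMT5 spleen 5 was the exception in both, with 47.0% in plasma cells and 57.6% in B cells for Ighv. Leaving out 1 library at a time gave an adjusted p of the exact test from 0.117 to 0.211, except without Eµ-PRMT5 spleen 5, where it was 0.0234. In 5 lymph nodes the differences were 8.81 points for Ighv (exact p = 0.438) and 19.4 points for Igkv (exact p = 0.250), and the smallest p that 5 libraries allow is 0.0625. Without Eµ-TCL1 lymph node 1, with 17 plasma cells, the Ighv difference was 1.45 points (exact p = 0.875), and without Eµ-TCL1 lymph node 3 the Igkv difference was 12.1 points (exact p = 0.500). For Ighv the plasma cells were the more mixed in 2 of the 5 nodes, with 97.6% against 98.6% in Eµ-TCL1 lymph node 3 and 94.5% against 99.2% in Eµ-PRMT5/TCL1 lymph node 4. Calls of 1 gene per cell divide B cells that have reads of 2 V genes of a chain, as in the mice described next. There the B cell value was 48.9% and 49.9% for Igkv in Eµ-TCL1 spleen 4 and lymph node 3, and 73.7% and 79.7% for Ighv in Eµ-PRMT5/TCL1 spleen 1 and lymph node 2. These values need not show a more mixed population, and their part in the differences was not tested.

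In 4 mice, chosen after their values were seen, most B cells carried reads of both V genes of a chain in the same cell, and plasma cells differed from B cells in their ratio. In Eµ-TCL1 lymph node 3, 94.2% of B cells had UMIs of both Igkv4-91 and Igkv17-127, with a median of 15 and 22 UMIs per cell. In the plasma cells of that node, 99.2% had both, with a median of 2480 and 241. The spleen of the same mouse gave medians of 30 and 39 in B cells and 2708.5 and 300 in plasma cells. Igkv4-91 was thus 165-fold and 90.3-fold higher in plasma cells than in B cells in the 2 tissues, and Igkv17-127 was 11.0-fold and 7.69-fold higher. This mouse is also where B cells called for a single light chain gene were divided, with Igkv17-127 in 57.3% and Igkv4-91 in 41.8% of the node B cells called for both chains, while none of 251 plasma cells was called Igkv17-127, which allows up to 1.20%.

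In Eµ-TCL1 lymph node 2, 98.5% of B cells and 100% of plasma cells had both Igkv4-91 and Igkv5-39. Medians were 30 and 18 in B cells and 2940 and 967 in plasma cells, 98.0-fold and 53.7-fold higher. The mouse of Eµ-PRMT5/TCL1 lymph node 2 and spleen 1 had 2 heavy chain genes, Ighv8-2 and Ighv1-55, in 85.0% and 85.3% of B cells. Their medians were 10 and 4 in B cells and 683 and 462 in plasma cells of the node, 68.3-fold and 115.5-fold higher. In the spleen they were 10 and 5 and then 514 and 327, 51.4-fold and 65.4-fold higher. For this heavy chain pair the fold of the second gene was the larger. The light chain genes of the same mouse, Igkv12-89 and Igkv6-14, were 60.9-fold and 2.67-fold higher in the spleen and 74.5-fold and 9-fold higher in the node. Igkv6-14 had medians of only 3 and 1 UMIs in B cells of spleen and node, and 8 and 9 in plasma cells. An Ighv gene was called, at 60% or more of the V UMIs, in 60 of 135 node and 103 of 179 spleen plasma cells of this mouse. In Eµ-PRMT5/TCL1 spleen 4, where 75.9% of B cells had both Igkv1-117 and Igkv10-94, the folds were 56.7 and 7. Igkv10-94 had medians of 3 UMIs in B cells and 21 in plasma cells there. The folds of Igkv6-14 and Igkv10-94 thus start near the floor. The leading light chain gene of the B cells was also called in T cells. This was so for 241 T cells of Eµ-PRMT5/TCL1 spleen 4 (Igkv1-117) and 170 T cells of Eµ-TCL1 lymph node 2 (Igkv4-91). It was called in 0 and 1 T cells of Eµ-TCL1 spleen 4 and lymph node 3 (Igkv17-127). In Eµ-PRMT5/TCL1 spleen 1 and lymph node 2 it was called in 3 and 1 T cells (Igkv12-89). The part of free RNA in the V gene reads of B cells and plasma cells was not tested. The folds are ratios of medians over the cells of 1 library, described with no test, and plasma cells also had more UMIs per cell.

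**Figure D3:**
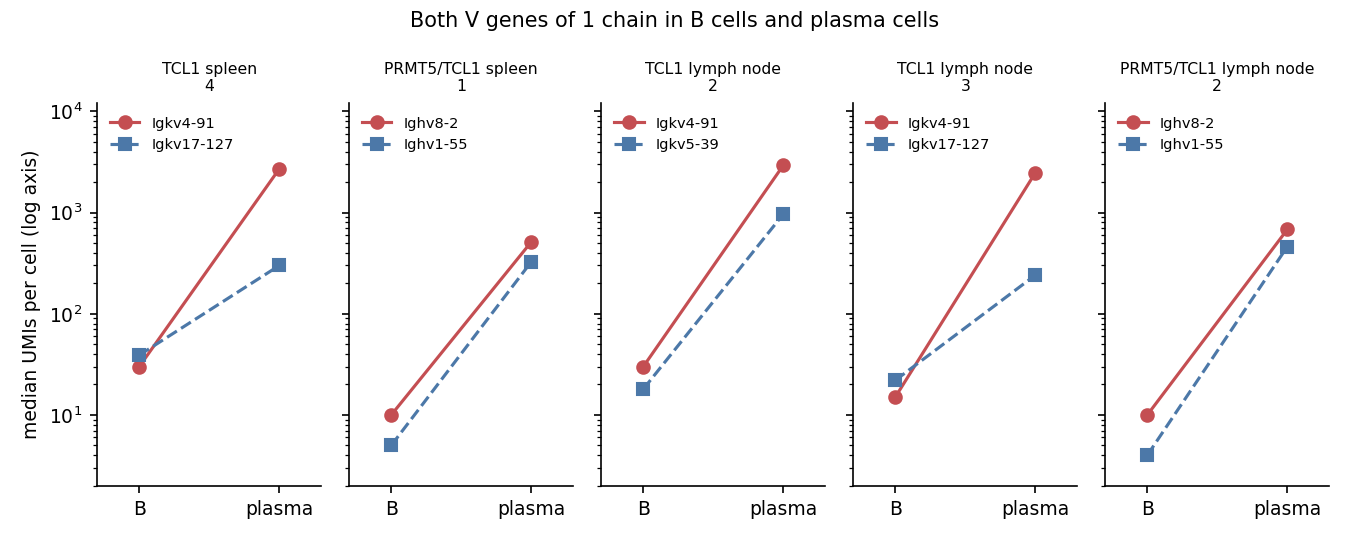
Median UMIs per cell (log axis) of both V genes of a chain in B cells and plasma cells of 5 libraries in which most B cells carried both. The lines of Igkv4-91 and Igkv17-127 cross between B cells and plasma cells in both tissues of a mouse, while those of Ighv8-2 and Ighv1-55 stay close.

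Nearly all plasma cells were of the IgM class. The class of a cell was called from at least 5 UMIs of constant region genes with at least 60% in 1 class, which gave a class in 1780 cells. Of these, 1763 were IgM, 12 IgG, 2 IgA, 2 IgD and 1 IgE. Median Ighm UMIs per cell ranged from 122 to 623 in plasma cells and from 2 to 9 in B cells of the 14 libraries. In Eµ-PRMT5 spleens 1, 2, 3 and 5 the IgM share was 93.5%, 94.7%, 98.1% and 96.0%. It was 100% in Eµ-TCL1 spleens 1 and 4 and 91.7% in spleen 3. Spleens 1 and 4 of Eµ-PRMT5/TCL1 mice had 100% and 99.8%. Lymph nodes 1 to 3 of Eµ-TCL1 mice had 94.1%, 100% and 98.8%, and nodes 2 and 4 of Eµ-PRMT5/TCL1 mice 100% and 98.1%.

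No comparison of class shares between groups or tissues passed. The IgM share of Eµ-PRMT5/TCL1 spleens was 4.32 points above that of Eµ-PRMT5 spleens without overlap (exact permutation p = 0.133, the smallest possible, adjusted p = 0.667), and the adjusted p of the other IgM comparisons ranged from 0.857 to 1. For IgG and IgA it was 1 in all comparisons. Against the B cells of the same library the IgM share differed by 0.319 points in 9 spleens (exact sign-flip p = 0.773) and by -0.666 points in 5 lymph nodes (exact p = 0.250). The spleen difference changed sign in 2 of 9 omissions of a library, to -0.726 points without Eµ-PRMT5 spleen 1.

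The 15 switched plasma cells, those of IgG, IgA or IgE class, were all outside the leading B cell V gene. They came from 9 libraries, with 1 to 3 each. Pooled over libraries, of 170 plasma cells with an Ighv gene other than the leading one of the B cells of their library, 15 were switched (8.82%). By library this was 3 of 44, 0 of 19, 1 of 52, 0 of 1 and 1 of 9 in Eµ-PRMT5 spleens 1 to 5. Eµ-TCL1 spleen 3 had 2 of 23. Eµ-PRMT5/TCL1 spleens 1, 3 and 4 had 0 of 1, 0 of 6 and 1 of 1. Nodes 1 and 3 of Eµ-TCL1 mice had 1 of 1 and 3 of 3, and nodes 2 to 4 of Eµ-PRMT5/TCL1 mice 0 of 3, 1 of 4 and 2 of 3. Of 1459 plasma cells with the leading gene, 0 were switched, which allows a pooled share of up to 0.206% by counting error only. Eµ-PRMT5/TCL1 spleen 4 alone held 566 of the 1459. Only 1, 0 and 2 of the 1459 were in Eµ-PRMT5 spleens 1 to 3 and 1 in Eµ-TCL1 spleen 3. The switched cells of these 4 spleens could hardly have had that gene. Among the constant genes of IgG subclasses, the plasma cells of Eµ-TCL1 spleen 3, with 2 IgG cells, had 834 UMIs of Ighg2b and 806 of Ighg2c. Those of Eµ-TCL1 lymph node 3, with 3 IgG cells, had 581 and 2288, and those of Eµ-TCL1 lymph node 1, with 1 IgG cell, had 1569 of Ighg2b. The plasma cells of Eµ-PRMT5 spleen 1, with 3 IgG cells, had 1481 UMIs of Ighg2c and 888 of Ighg3. The IgE cell was in Eµ-PRMT5/TCL1 lymph node 4, where plasma cells had 496 UMIs of Ighe. IgA cells were found in Eµ-PRMT5 spleens 3 and 5, 1 in each.

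Immunoglobulin transcripts filled much of the plasma cell transcriptome. Immunoglobulin genes and Jchain took a median of 20.5% to 63.4% of UMIs in plasma cells and 0.778% to 1.90% in B cells over the 14 libraries. For all other genes, sums over the plasma cells and over the B cells of each of 12 libraries were set side by side as CPM, counts scaled to a common library total, without immunoglobulin genes. The rule itself draws this contrast, so it is given as a description, with no test. Log2 ratios were taken per library with the same constant added to both CPM values, which shrinks the ratios of genes at low levels. Their medians over libraries are given. Of 6174 genes, 790 (12.8%) were higher in plasma cells in all 12 libraries and 946 (15.3%) were lower.

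Genes of ER folding and secretion were higher in plasma cells almost without exception. Of the 30 listed, 29 were higher in all 12 libraries, with a median log2 ratio of 2.34 over the list and -0.14 over all genes. Sdf2l1, a chaperone cofactor, had the largest median log2 ratio of all genes outside the rule, at 4.25 (3.09 to 5.36 over libraries). Its mean was 743 CPM in plasma cells and 29.5 in B cells. Hsp90b1, the ER chaperone GRP94, was at 3462 and 396 CPM and Hspa5, the chaperone BiP, at 2313 and 467. Creld2 and Manf, both secreted on ER stress, and Edem1, which sends misfolded glycoproteins to degradation, had median log2 ratios of 3.34, 3.20 and 3.66. The exception was Canx, calnexin, with 0.62 and 11 of 12 libraries higher.

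Plasma cell regulators outside the rule followed. Xbp1 had a median log2 ratio of 4.15 (3345 against 218 CPM), Eaf2 of 3.65, Txndc5, a disulfide isomerase, of 3.28, Slamf7 of 3.26 and Prdm1 of 1.37, each higher in 12 of 12 libraries. Irf4, a transcription factor of both B cell activation and plasma cells, did not separate them: its median log2 ratio was -0.21 and it was higher in 5 of 12 libraries. Genes of the integrated stress response were higher in part, with 6 of 9 measured members higher in all 12 libraries. Chac1, which degrades glutathione, had the largest median log2 ratio among them at 3.12, whereas Atf4, their common activator, was at 0.59 and Atf3 at 0.03.

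B cell identity genes were lower but unequally so. Of 11 measured, 8 were lower in all 12 libraries. Spib, a transcription factor of the B lineage, had the lowest median log2 ratio of all genes, at -3.05 (14.4 against 195 CPM). Pax5 was at -2.05, Ebf1 at -1.87 and Ms4a1 at -1.64. Cd79a, the signalling chain of the B cell receptor, was not lower, with a median of 0.52 and 8 of 12 libraries higher (3618 against 2564 CPM), while its partner Cd79b was at -1.25. Of the 8 MHC class II genes 6 were lower in all 12 libraries, with H2-Aa at -1.76 and H2-Eb1 at -1.52. Cd74 was at -0.45 and still the most abundant of the list at 12645 CPM in plasma cells against 18395 in B cells.

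Survival, homing and surface genes were mixed. Of 14 measured survival and homing genes 2 were higher (14.3%) and 3 lower (21.4%) in all 12 libraries, near the 12.8% and 15.3% of all genes. Tnfrsf13b, the receptor TACI for the survival factors BAFF and APRIL, was at 1.15 and Bcl2l11, which codes for the pro-apoptotic protein Bim, at 1.10. Klf2 and S1pr1, which act together in the exit of lymphocytes from lymphoid tissue, were at -2.23 and -1.70. Cd28, a co-stimulatory receptor of T cells that plasma cells also carry, was at 1.60, a ratio shrunk by the added constant. Its mean was 30.9 CPM in plasma cells and 0.844 in B cells. Of 15 measured surface and B-1 associated genes 4 were higher (26.7%) and 3 lower (20%) in all 12 libraries, with Ly6c2 at 3.69 and Epcam at 3.30 in the lead and Lag3, an inhibitory receptor, at 2.76. Among the lower ones were Zbtb32, a transcriptional repressor, at -1.68 and Cd38, an ectoenzyme that consumes NAD, at -1.17. Of the 6 genes of the methylosome, the complex in which PRMT5 methylates arginines of spliceosomal proteins, none was higher in all libraries and 2 were lower in all (33.3%, against 15.3% of all genes), Snrpd1 at -0.47 and Snrpd3 at -0.33. Mouse Prmt5 was at -0.51 (15.9 against 25.1 CPM).

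Genes of NK cells, T cells and erythroid cells were low in the plasma cell sums, and myeloid genes were not. The 6 NK cell genes summed to 0 to 3.6 CPM and the 10 T cell genes to 77.2 to 451 CPM, against 2356 to 4399 CPM in T cells. Only Cd2 and Lck of the T cell list passed the filter on low counts, with median log2 ratios to B cells of -1.44 and -1.15. The 10 myeloid genes ranged widely, from 305 to 12668 CPM, with the highest value in Eµ-TCL1 spleen 3, and had a median of 1306 CPM in plasma cells and 883 CPM in B cells. Of 6 measured myeloid genes 1 was higher in plasma cells in all 12 libraries (16.7%, against 12.8% of all genes). It was Cst3, the secreted protease inhibitor cystatin C, with a median log2 ratio of 2.05 (967 against 221 CPM). The others were not higher, with medians from -0.45 for Lyz2 to 0 for Ngp. The 8 erythroid genes summed to 0 to 113 CPM.

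**Figure D4:**
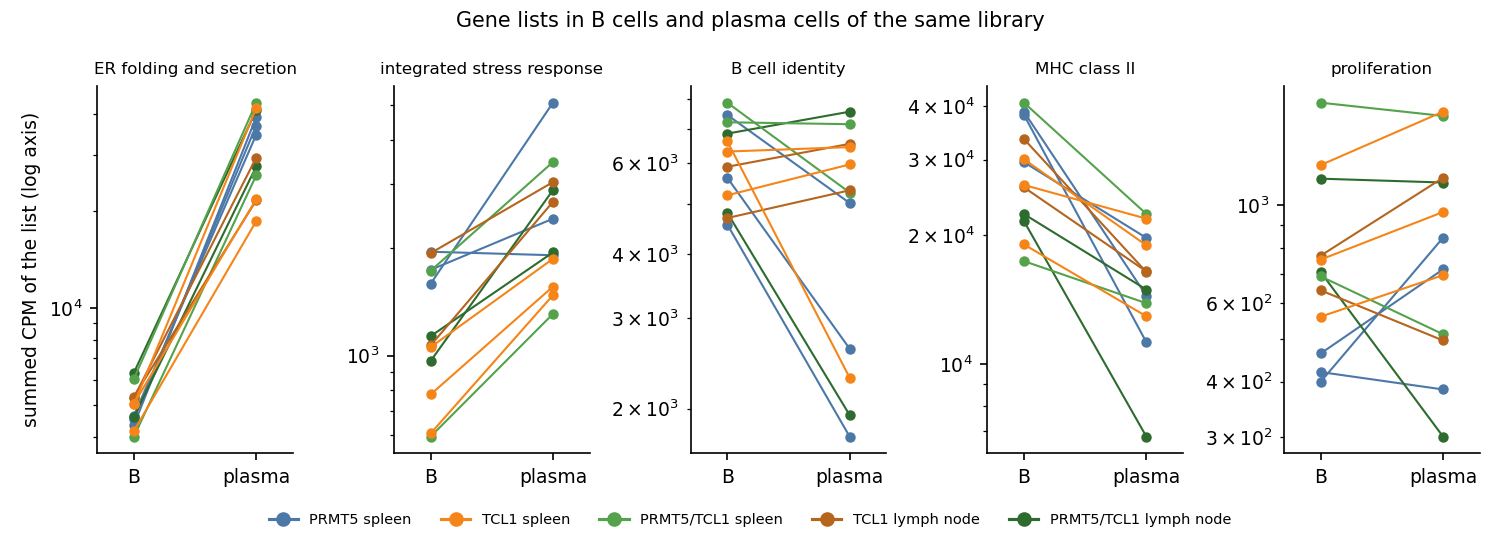
Summed CPM of 5 gene lists (log axes with different ranges) in B cells and plasma cells of the same library, for 12 libraries coloured by group. Every line rises for ER folding and secretion and falls for MHC class II, while for B cell identity and for proliferation some lines rise and others fall.

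Plasma cells with a UMI of a cell cycle gene were found in each of the 14 libraries, on 1 cell in 7 of them. After each cell was thinned to 1000 UMIs outside immunoglobulin genes, the share with a UMI of Mki67 or Top2a, here the cycling share, was highest in Eµ-TCL1 spleen 1 (15 of 104 cells, 14.4%), Eµ-PRMT5/TCL1 spleen 4 (67 of 566, 11.8%), Eµ-TCL1 lymph node 3 (27 of 252, 10.7%) and Eµ-PRMT5/TCL1 lymph node 4 (8 of 108, 7.41%), and between 1.49% and 5.88% in the other 10 libraries. In the same 4 libraries it was 8.90%, 9.84%, 4.23% and 7.54% of B cells and 4.31%, 9.13%, 1.43% and 2.80% of T cells. The T cell share over the 14 libraries ranged from 0.533% to 14%. In Eµ-PRMT5/TCL1 spleen 1 the plasma cell share was 1.68%, below the 3.29% of B cells and 14% of T cells in the same library. The share that free RNA gives was not measured, and its part in these values was not tested. The thinning left out 3 plasma cells, each in a different library. Without thinning the plasma cell shares ranged from 7.82% to 43.3%.

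The cycling share in spleens was 3.33% ± 1.59 (SD, n = 4) for Eµ-PRMT5, 7.39% ± 6.10 (n = 3) for Eµ-TCL1 and 6.76% ± 7.19 (n = 2) for Eµ-PRMT5/TCL1. In lymph nodes it was 6.20% ± 4.37 (n = 3) for Eµ-TCL1 and 4.45% ± 4.18 (n = 2) for Eµ-PRMT5/TCL1. None of the 5 comparisons passed (exact permutation and sign-flip tests, adjusted p = 0.8 for each).

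Across genes, plasma cells of the 3 genotypes could not be told apart in spleen. Sums of counts per library, without immunoglobulin genes, were compared with edgeR's quasi-likelihood test and Benjamini-Hochberg adjustment over all genes tested. Of 6326 genes none passed an adjusted p of 0.05 between 3 spleens of Eµ-PRMT5 and 3 of Eµ-TCL1 mice, between 2 spleens of Eµ-PRMT5/TCL1 and 3 of Eµ-TCL1 mice, or between 2 spleens of Eµ-PRMT5/TCL1 and 3 of Eµ-PRMT5 mice (0% in each). At an unadjusted p under 0.05 there were 530, 303 and 344 genes, and DESeq2 called 13, 6 and 7. With simulated counts of the first comparison, 94 of 200 changed genes were recovered. Without a filter on low counts edgeR called 194, 138 and 151 genes.

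No member of any list passed in these comparisons. Between spleens of Eµ-PRMT5 and of Eµ-TCL1 mice the median log2 fold change was 0.41 over the 30 ER genes, -0.58 over 7 tested MHC class II genes and -1.16 over 15 proliferation genes, against 0.00 over all genes. The 6 tested myeloid genes had a median of -2.04 in the same comparison, and their part in the others was not tested. Between spleens of Eµ-PRMT5/TCL1 and of Eµ-PRMT5 mice it was 1.08 over 9 B cell identity genes and 0.68 over the proliferation genes. These 2 comparisons share the Eµ-PRMT5 spleens. In single libraries the summed proliferation genes reached 1624 CPM in Eµ-TCL1 spleen 1 and 1588 CPM in Eµ-PRMT5/TCL1 spleen 4, and 300.6 to 1152 CPM in the other 10. The summed B cell identity genes were lowest in Eµ-PRMT5 spleen 3 (1765 CPM), Eµ-PRMT5/TCL1 lymph node 4 (1944 CPM) and Eµ-TCL1 spleen 1 (2298 CPM) and reached 7567 CPM in Eµ-PRMT5/TCL1 lymph node 2. Cd79a, at a mean of 3618 CPM in plasma cells, is the largest member of these sums.

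Between 2 lymph nodes of Eµ-PRMT5/TCL1 and 2 of Eµ-TCL1 mice 1 of 8079 genes passed (0.0124%), and 693 had an unadjusted p under 0.05. It was Xist, the RNA of the inactive X chromosome, with 350 and 239 CPM in Eµ-PRMT5/TCL1 nodes 2 and 4 and 0 in both Eµ-TCL1 nodes (adjusted p = 0.0185, edgeR). By the sex genes both Eµ-PRMT5/TCL1 nodes were from females and both Eµ-TCL1 nodes from males, so that sex and genotype cannot be told apart in this comparison. DESeq2 called 44 genes, and edgeR called 0 with the T cell receptor genes in the rule or with at least 10 plasma cells. Without Eµ-TCL1 node 2 or 3 it called 121 and 133, without Eµ-PRMT5/TCL1 node 2 it called 4 and without node 4 it called 0. No list member passed. The median log2 fold change was 0.91 over the 30 ER genes, -0.88 over 10 B cell identity genes, -0.94 over 8 MHC class II genes and 1.56 over 7 interferon response genes, against -0.03 over all genes. A single library, Eµ-PRMT5/TCL1 lymph node 4, stood apart in these lists. The ER sum was 41214 CPM in it, 27578 CPM in node 2 and 29376 and 21648 CPM in Eµ-TCL1 nodes 2 and 3. The B cell identity sum was 1944 CPM in node 4, 7567 CPM in node 2 and 6552 and 5321 CPM in the Eµ-TCL1 nodes. The MHC class II sum was 6791 CPM in node 4, 14938 CPM in node 2 and 16410 and 16462 CPM in the Eµ-TCL1 nodes. The interferon sum was 2226 CPM in Eµ-PRMT5/TCL1 lymph node 4 and 780 CPM in node 2, and 739 and 789 CPM in the Eµ-TCL1 nodes.

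Between lymph node and spleen 91 of 7240 genes passed (1.26%), 71 higher in the node (0.981%) and 20 lower (0.276%), and 593 had an unadjusted p under 0.05. The fit rests on 2 mice with at least 20 plasma cells in both tissues, 1 Eµ-TCL1 and 1 Eµ-PRMT5/TCL1, with mouse as a block. None of the 91 calls was made by DESeq2, by the fit without the block, or with a limit of 10 plasma cells and 3 mice, and edgeR called 7 genes with the T cell receptor genes in the rule and 45 without doublets, so the genes below are given as values of these 2 mice.

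The genes higher in the node with the largest change were as follows. Here and below, the standard error (SE) is the log2 fold change divided by the root of the test statistic of the fit. Neither this SE nor the adjusted p measures how far the mice differed from each other. The heat shock gene Hspa1b was at 14.7 and 59.3 CPM in the nodes and at 0 in both spleens (adjusted p = 1.76e-09), and its neighbour Hspa1a, a near-identical copy with which reads may be shared, had a log2 fold change of 2.11 ± 0.34 (SE, adjusted p = 1.15e-06). Slpi, a secreted protease inhibitor, rose by 2.45 ± 0.31 (adjusted p = 1.25e-11), but was at 1112 CPM in the Eµ-TCL1 node and 92.7 in its spleen against 41.9 and 23 in the Eµ-PRMT5/TCL1 mouse, so that the size came from 1 mouse. Ccr7, the chemokine receptor that directs lymphocytes into lymph nodes, had a log2 fold change of 2.19 ± 0.37 (adjusted p = 2.87e-06), and the Notch target Hes1 one of 2.18 ± 0.52 (adjusted p = 0.00370). Cldn7, Plau, Adm, Eps8 and Hist2h2aa1 were the others, with log2 fold changes between 2.07 and 2.83.

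The genes lower in the node with the largest change were Cenpf, a kinetochore protein of dividing cells (-2.24 ± 0.55, adjusted p = 0.00682), and Krt8, a keratin (-2.23 ± 0.41, adjusted p = 3.55e-05). Krt8 was at 30.4 CPM in the node and 189.5 CPM in the spleen of the Eµ-TCL1 mouse, and at 7.23 and 9.58 CPM in the Eµ-PRMT5/TCL1 mouse, so that most of its difference came from 1 mouse. Cenpf was at 19.3 and 84.2 CPM in the former and 0 and 5.75 CPM in the latter. Others were Anxa2 at -1.93 and Ube2c, a ubiquitin-conjugating enzyme of mitosis, at -1.51. Over all genes 0.981% were called higher and 0.276% lower. Of the lists, 1 of 30 ER genes passed, Hspa5, with 2103 and 2175 CPM in the nodes and 1554 and 1345 CPM in the spleens, and 1 of 9 plasma cell markers, Txndc5. Of 9 integrated stress response genes 3 passed and were higher, Atf3, Chac1 and Sesn2, and of 12 proliferation genes 2 passed and were lower, Cenpf and Ube2c. Of 15 surface and B-1 associated genes 2 were higher, Ly6c2 among them, and of 16 survival and homing genes Cd93 was lower. Summed T cell genes were at 410 and 223 CPM in these nodes and 451 and 183 CPM in the spleens of the Eµ-TCL1 and the Eµ-PRMT5/TCL1 mouse. Summed myeloid genes were at 963 and 1520 CPM in the nodes and 977 and 1448 CPM in the spleens. The part of other cells in these calls was not tested.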

How the data were processed

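Single-cell 3′ RNA libraries of unselected live cells were analysed from the matrices of UMI counts that the authors deposited, 1 per library, with 31053 genes and 737280 barcodes before any filter on cells. The submitters' processing notes name Cell Ranger 2.0.1, Seurat 2.2.1 and GRCm38, whereas the matrix headers name Cell Ranger 3.1.0. Of the gene IDs 31011 were in GENCODE vM21.

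Barcodes were filtered and plasma cells called as stated above. B cells had at least 3 UMIs of B cell surface genes and none of Derl3, Sdc1 or the Cd3 genes. T cells had at least 2 UMIs of the Cd3 genes and none of the B cell genes. Neither class had a limit on Jchain. Scrublet (scanpy 1.11.5) set automatic thresholds that marked 0% to 4.01% of barcodes per library and were not used; the expected number, 5 to 596 per library at 0.8% per 1000 barcodes, was left out as an alternative instead. Plasma cells, the gene lists and the tests were chosen with earlier results of these data known. Shares were tested over libraries or mice by exact two-sided tests (scipy 1.17.1), with Benjamini-Hochberg adjustment over 5 comparisons of a measure. Counts summed over the plasma cells of libraries with at least 20 were tested with edgeR 4.0.16 in R 4.3.3, with DESeq2 1.42.0 as an alternative, after a check on simulated data. Simulated counts were drawn from the mean levels and depths of these libraries, with the same spread for all genes and changes of at least 2-fold. In the first spleen comparison 94 of 200 changed genes were recovered (3 false calls), and between lymph nodes 79 of 200 (1 false call). Named genes were the 10 with the largest fold in each direction among those with an adjusted p below 0.05, no overlap (for tissues, the same direction in every mouse) and at least 20 CPM in the higher group. List members were named by their mean CPM, and further members after their values were seen. Log2 ratios of plasma cells to B cells were taken with 10 CPM added to both values.

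Spleen and lymph node were paired by the mouse number in the labels. Replicate numbers do not pair mice of different genotypes. Each library is 1 organ of 1 mouse. Intervals (Wilson, 95%) and limits for a count of 0 (3 counts) cover counting error only. The settings with T cell receptor genes, thinning to 1500 UMIs and at least 10 plasma cells were chosen after seeing the data. Values of 1 B cell gene are not reported here.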

Additional observations from a re-analysis of the deposited data

Results flagged for a closer look

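Among 4 Eµ-PRMT5 spleens, the share of plasma cells with the leading Ighv gene of the B cells was 64.0% in Eµ-PRMT5 spleen 5, far from the 2.22%, 0% and 3.70% of spleens 1 to 3. The gap to the nearest of the others was 0.942 of the range, above Dixon's 95% critical value for 4 samples. It was the single outlying sample in 7 groups tested, and chance gives about 1 such sample in 20 groups. The measures tested were plasma cell share, IgM share, this share and median UMIs per plasma cell. The cycling share was not tested for outliers in any group.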

How the results depend on the processing

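Of 579 recomputed values over 63 results, those that changed direction, or whose number of calls moved by over 1.5 times, were as follows, and the cause was not tested. The difference in plasma cell share between lymph node and spleen turned to -0.0626 points with at least 50 Jchain UMIs, -0.385 with at least 4 Derl3 and Sdc1 UMIs, -0.0306 with at least 3000 UMIs, -0.0236 with the T cell receptor genes and -0.336 after thinning. That between spleens of Eµ-PRMT5 and of Eµ-TCL1 mice turned to -0.0364 as a share of plasma and B cells, -0.887 with the T cell receptor genes and -0.585 after thinning. That between spleens of Eµ-PRMT5/TCL1 and of Eµ-PRMT5 mice turned to -0.185 on a log2 scale. With the T cell receptor genes the IgM difference was -0.0522 points between lymph nodes and 0.455 between tissues. With at least 50 Jchain UMIs the IgG difference between spleens of Eµ-PRMT5 and of Eµ-TCL1 mice was 0.336. With heavy and light chain together the clone share differed by 31.4 points between lymph nodes. In Eµ-TCL1 lymph node 3, where most cells had reads of both light chain genes, 0 of 251 plasma cells were called for the leading B cell pair. Unthinned the cycling share differed by -1.58 between spleens of Eµ-PRMT5/TCL1 and of Eµ-PRMT5 mice.

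Numbers of genes called in the 3 spleen comparisons, in the report's order, were 13, 6 and 7 with DESeq2 and 194, 138 and 151 without the filter. The latter 2 gave 1 each with at least 50 Jchain UMIs. Between lymph nodes the numbers were 44 with DESeq2, 80 without the filter, and 0 with at least 10 plasma cells or the T cell receptor genes. Between tissues they were 0 with DESeq2, 0 with at least 10 plasma cells, 7 with the T cell receptor genes and 45 without doublets, against 82 with DESeq2 size factors in edgeR and 91 in the report. With a replicate block 8 genes were called between spleens of Eµ-PRMT5 and of Eµ-TCL1 mice and 0 in the other spleen comparisons. With no replicate block, that is with mice not paired, 0 were called between tissues. The replicate block gave share differences of 0.328, 2.76, 2.43 and -2.63 points (exact adjusted p = 0.938), and unpaired tissues 0.118 points.

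Leaving out 1 library at a time gave ranges of -0.0357 to 0.540 points for the share between spleens of Eµ-PRMT5 and of Eµ-TCL1 mice and -0.854 to 1.76 between tissues. The share difference ranged from 0.390 to 3.89 and from 0.176 to 3.68 for Eµ-PRMT5/TCL1 against Eµ-TCL1 and against Eµ-PRMT5 spleens, and from -4.36 to -1.58 between lymph nodes. For IgG they were -2.78 to 1.63, -2.09 to 0.0883 and -4.08 to 0.0883 in the comparisons of Eµ-PRMT5 with Eµ-TCL1, Eµ-PRMT5/TCL1 with Eµ-PRMT5 and Eµ-PRMT5/TCL1 with Eµ-TCL1 spleens. For IgM they were -0.331 to 2.61 between lymph nodes and -0.0883 to 4.08 between spleens of Eµ-PRMT5/TCL1 and of Eµ-TCL1 mice. The clone share ranged from -82.5 to -34.6 between spleens of Eµ-PRMT5 and of Eµ-TCL1 mice. Between spleens of Eµ-PRMT5/TCL1 and of Eµ-TCL1 mice the clone share ranged from -0.574 to 47.3 and cycling from -2.54 to 2.89, and cycling ranged from -3.85 to 0.509 between lymph nodes and -4.36 to 3.48 between tissues. Plasma cells against B cells in spleens gave -0.726 to 1.31 for IgM, 10.7 to 17.8 for Ighv and 13 to 21 for Igkv, and in lymph nodes 1.45 to 12.2 for Ighv and 12.1 to 25.1 for Igkv. Genes called ranged from 0 to 2 in each comparison of Eµ-PRMT5/TCL1 spleens. Between lymph nodes they ranged from 0 to 133: 121 and 133 without Eµ-TCL1 node 2 or 3, 4 without Eµ-PRMT5/TCL1 node 2 and 0 without node 4, where the lone library is assumed to vary like the others. Leaving out a mouse was not run for the tissue genes, nor a sex term for the nodes.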
